A study of Mus musculus with 4 samples.

Results

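Prostaglandin synthesis and receptors were followed as 10 genes, *Ptgs1*, *Ptgs2*, *Ptges*, *Ptgds*, *Ptgis*, *Ptger2*, *Ptger3*, *Ptger4*, *Ptgfr* and *Hpgd*, chosen by gene symbol among the 32285 genes counted in the files. All 10 were present. The data were 4 single-cell RNA sequencing (scRNA-seq) libraries of fracture callus, the tissue that forms at a healing fracture, from wild-type C57BL/6J mice that were 3 months old. Control mice received vehicle, and RA mice received K/BxN serum, which transfers arthritis, and callus was taken at 4 or 7 days post fracture (dpf), giving control_4d, control_7d, RA_4d and RA_7d. Each library held the pooled callus of several mice (4 per the labels, another number per the study's methods), scraped from the periosteal surface and digested with collagenase. With 1 library per condition, no difference between RA and control could be tested, condition and library cannot be told apart, and every 95% interval given here covers counting error only.

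Prostaglandins are lipid messengers made from arachidonic acid. Cyclooxygenases (COX-1, encoded by *Ptgs1*, and the inducible COX-2, encoded by *Ptgs2*) make the common precursor PGH2, which terminal synthases turn into PGE2 (*Ptges*), PGD2 (*Ptgds*) or prostacyclin (*Ptgis*). PGE2 acts on the receptors EP2, EP3 and EP4 (*Ptger2*, *Ptger3*, *Ptger4*), PGF2α acts on FP (*Ptgfr*), and *Hpgd* encodes the enzyme that starts their breakdown. COX-2 is known to be needed for normal fracture healing, and COX inhibitors are common treatments of arthritis.

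All 10 are protein-coding genes, given here by their positions in GENCODE M21 on GRCm38. *Ptgs1* lies on chromosome 2 from 36230426 to 36252272 and *Ptgs2* on chromosome 1 from 150100031 to 150108227, 138.7 kilobases from *Pla2g4a*, the gene of a phospholipase that releases arachidonic acid. *Hpgd* lies on chromosome 8 from 56294585 to 56321043. *Ptges* and *Hpgd* each overlap another annotated gene on the same strand that the deposited gene table does not list, and *Ptger4* overlaps *Ttc33* on the other strand. The 250 bases before the RefSeq start site (GRCm38.p6, plus strand) are shown for the 2 cyclooxygenase genes, which had their highest levels in different cell classes, and for *Hpgd*, whose ratio of RA to control had opposite signs at the 2 time points in myeloid cells. Capitals mark GGGCGG, the GC box, on either strand.
Ptgs1 (chr2:36230176-36230425): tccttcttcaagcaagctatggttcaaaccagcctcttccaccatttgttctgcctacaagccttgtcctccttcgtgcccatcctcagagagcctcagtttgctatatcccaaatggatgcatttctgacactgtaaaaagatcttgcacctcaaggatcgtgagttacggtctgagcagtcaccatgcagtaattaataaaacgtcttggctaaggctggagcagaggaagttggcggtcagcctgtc
Ptgs2 (chr1:150099781-150100030): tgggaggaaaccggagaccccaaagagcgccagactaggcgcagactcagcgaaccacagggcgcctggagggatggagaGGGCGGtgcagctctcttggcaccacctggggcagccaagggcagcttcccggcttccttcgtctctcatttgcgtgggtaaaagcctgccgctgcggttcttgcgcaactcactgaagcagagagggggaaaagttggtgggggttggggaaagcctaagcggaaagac
Hpgd (chr8:56294302-56294551): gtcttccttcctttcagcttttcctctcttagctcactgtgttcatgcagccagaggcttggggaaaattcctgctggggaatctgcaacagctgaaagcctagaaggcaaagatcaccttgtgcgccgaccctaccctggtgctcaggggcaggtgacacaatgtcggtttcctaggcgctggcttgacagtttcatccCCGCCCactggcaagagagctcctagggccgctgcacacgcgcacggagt

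Promoter entries were found for 9 of the 10 genes. Motifs were searched on both strands from 250 bases before to 50 bases after the start. The GC box was found at 6 of the 9 genes, *Ptgs2*, *Ptges*, *Ptgfr*, *Ptger3*, *Ptger4* and *Hpgd*, and in 35.7% of all 32851 promoter entries. ACGTCA, the core of the cyclic AMP response element, was found at *Ptgs2* alone among the 9, as was the E-box CACGTG, which shares 2 letters with it. Both start within the first bases of the annotated *Ptgs2* transcript, at bases 13 and 17, and occur in 7.51% and 7.15% of all entries. TATAAA was found at *Hpgd* alone, at base 5 of the RefSeq transcript (13.6% of all entries). *Ptgs1* held none of the 4 motifs. A match is a description of the letters only.

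The cells kept by the study's own limits numbered 25479 of 34038 barcodes, with 83405494 to 156567619 unique molecular identifiers (UMIs, each 1 captured molecule) per library. Clustering without the 10 genes or the other genes of the pathway gave 22 clusters, of which 21 were named from fixed markers as X-like classes. One cluster of 63 cells, 95.2% of them called doublets, was left unnamed. A cluster led by *H2-Aa*, *Cd74* and *H2-Eb1* scored highest for macrophage markers. Its 10 leading genes held the monocyte marker *Ccr2* and no macrophage marker, so it is called H2-Aa myeloid-like. Chondrogenic-like cells were almost all from 7 dpf, with 257 cells in control_7d and 131 in RA_7d against 1 and 3 at 4 dpf. Libraries shared few barcodes among kept cells, 66 in all. Levels are CPM, the UMIs of a gene scaled by the total UMIs of the cells summed. Where 4 values are given together, they stand in the order control_4d, control_7d, RA_4d, RA_7d. The level of a gene is compared between cells and not with that of another gene.

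The highest levels of the 10 genes fell in several lineages. *Ptgs1* was highest in venular endothelial-like cells, *Ptgs2*, *Ptges*, *Ptgis*, *Ptger3* and *Ptgfr* in mesenchymal classes, *Ptger4* in myeloid and lymphoid classes, and *Hpgd* in chondrogenic-like, macrophage-like and other myeloid cells. *Ptgds* was nearly absent.

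**Figure D1:**
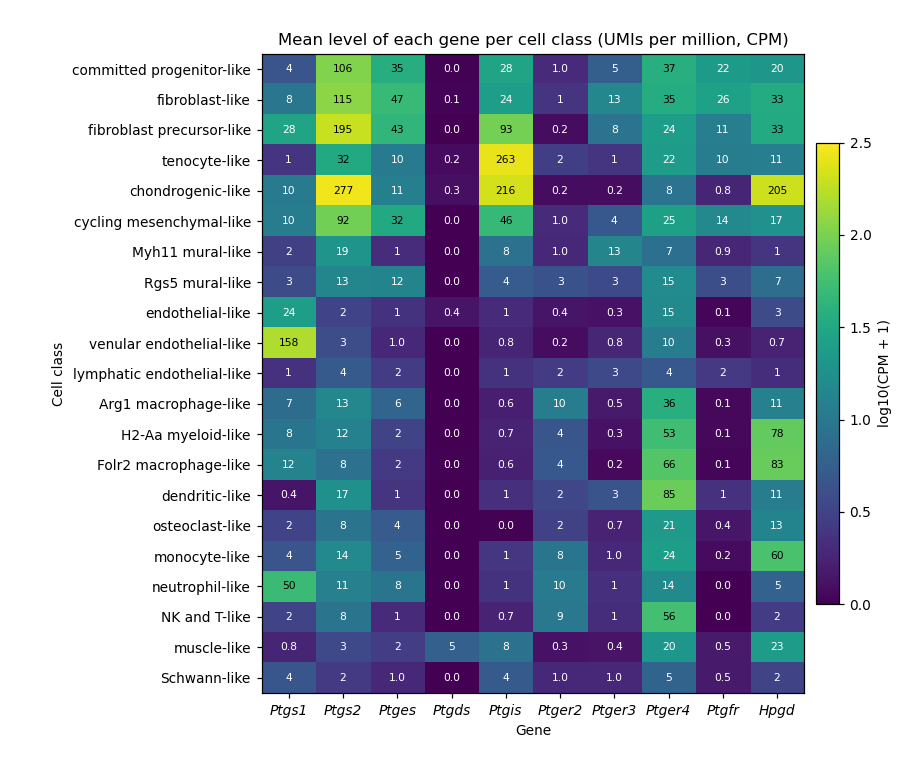
Mean level (CPM) of each of the 10 genes (columns) in the 21 named cell classes (rows), averaged over the libraries in which the class had at least 20 cells, with colour on a log10(CPM + 1) scale and the mean CPM written in each box. *Ptgs1* stands out in venular endothelial-like cells (158), *Ptgs2* in chondrogenic-like cells (277) and *Ptgis* in tenocyte-like cells (263).

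The level of *Ptgs1* in venular endothelial-like cells was 153 and 110 CPM in control at 4 and 7 dpf and 188 and 182 CPM in RA. Each of these values was above every value in every other class. Neutrophil-like cells came next, with 40.8, 27.3, 55.5 and 74.3 CPM in the same order, and their range overlapped that of fibroblast precursor-like cells (58.9, 19.6, 14.1 and 18.4 CPM). The other endothelial-like cells of blood vessels had 23.7, 10.9, 35.5 and 27.8 CPM. With each cell thinned to 4000 UMIs, *Ptgs1* was detected in 31.9% to 52.7% of venular endothelial-like cells (68.8% to 91.9% without thinning), at median depths of 12924 to 17322 UMIs. Dendritic-like cells, at median depths of 9680 to 13896 UMIs, had a thinned share of 0% in all 4 libraries and held 3 *Ptgs1* UMIs in all, from control_7d. Endothelial cells as a whole held 44.4%, 36.1%, 58.7% and 57.0% of *Ptgs1* UMIs and mesenchymal cells 31.0%, 39.4%, 11.4% and 31.9%, so that in control_7d more came from mesenchymal cells. *Slco2a1*, the prostaglandin transporter that clears prostaglandins from outside the cell, had its highest level in the same venular endothelial-like cells, at 530, 488, 631 and 568 CPM, followed by endothelial-like cells with a mean of 86.5 CPM.

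*Ptgs2* was a mesenchymal transcript in every library. Mesenchymal cells held 87.1% of its UMIs and 94.7% in control at 4 and 7 dpf and 85.9% and 95.8% in RA. They made up 18.2%, 42.2%, 19.9% and 50.1% of the kept cells. Of the kept UMIs of all genes they held 30229771 of 108438906, 81320179 of 141714572, 23990632 of 83405494 and 102486710 of 156567619 in the same libraries. Myeloid cells (macrophage-like, monocyte-like, dendritic-like and osteoclast-like cells, without neutrophils) held 11.6%, 3.31%, 11.5% and 1.84%. Among mesenchymal classes, chondrogenic-like cells had 334 CPM in control_7d and 219 in RA_7d, the only libraries with at least 20 such cells. Fibroblast precursor-like cells, marked by *Pi16* and *Dpp4*, had 297 and 119 CPM in control at 4 and 7 dpf and 196 and 166 CPM in RA. Their range overlapped that of the chondrogenic-like cells, and also those of fibroblast-like cells (164, 69.2, 104 and 124 CPM) and committed progenitor-like cells (118, 99.8, 121 and 84.6 CPM) below them. Tenocyte-like cells were set apart, with 17.1, 38.9, 24.3 and 47.8 CPM and no overlap with the mesenchymal classes above them.

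After thinning to 4000 UMIs, a *Ptgs2* UMI was seen in 37.4% of chondrogenic-like cells in control_7d and 34.4% in RA_7d (65.8% and 62.6% without thinning; median depths 29974 and 29179). The thinned share in fibroblast precursor-like cells ranged from 26.3% in control_7d to 45.7% in control_4d. Endothelial-like cells, with median depths of 15058.5 to 24574 UMIs, had a thinned share of 0.543% to 1.24% and *Ptgs2* levels of 0.606 to 4.00 CPM. Arg1 macrophage-like cells had 11.4 to 15.8 CPM of *Ptgs2* in the 4 libraries, above every endothelial-like value and below every fibroblast-like value.

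*Ptges*, which encodes the inducible PGE2 synthase, had its highest level in fibroblast-like cells, at 50.1, 43.0, 46.9 and 48.7 CPM in control_4d, control_7d, RA_4d and RA_7d. Fibroblast precursor-like cells (42.8, 36.5, 45.5 and 48.0 CPM), committed progenitor-like cells (30.2, 42.0, 31.6 and 37.3 CPM) and cycling mesenchymal-like cells (30.1, 25.1, 38.3 and 33.7 CPM) followed, each overlapping its neighbour. Mesenchymal cells held 80.6% to 94.8% of all *Ptges* UMIs. Chondrogenic-like cells, which had the highest mean *Ptgs2*, had only 13.3 and 8.97 CPM of *Ptges* in control_7d and RA_7d.

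*Ptgis*, the prostacyclin synthase gene, had its highest mean over libraries in tenocyte-like cells. These had 355 and 179 CPM in control at 4 and 7 dpf and 304 and 213 CPM in RA. Chondrogenic-like cells had 232 CPM in control_7d and 199 in RA_7d, within that range. They were thus above tenocyte-like cells in control_7d and below them in RA_7d. Fibroblast precursor-like cells came next with 115, 74.3, 58.9 and 124 CPM, below both. Mesenchymal cells held 95.9% to 98.03% of *Ptgis* UMIs. *Ptgir*, the receptor gene for prostacyclin, was highest elsewhere, in monocyte-like cells (36.5, 38.5, 35.7 and 48.6 CPM) and Rgs5 mural-like cells, the vessel-wall cells (25.7, 26.6, 39.2 and 31.9 CPM).

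*Ptgds*, which encodes the lipocalin-type PGD2 synthase, gave 103 UMIs in all 25479 cells. Muscle-like cells held 60.7% to 87.5% of them, at 2.02, 6.44, 6.04 and 4.76 CPM. Every other class stayed below 1 CPM in each library. *Hpgds*, the gene of the other PGD2 synthase, was instead found in Folr2 macrophage-like cells, at 158, 184, 150 and 208 CPM, above H2-Aa myeloid-like cells (mean 99.4 CPM). *Tbxas1*, the thromboxane synthase gene, had its highest mean in the same Folr2 macrophage-like cells (147 CPM), with a range that overlapped that of Arg1 macrophage-like cells (mean 112 CPM).

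Among the PGE2 receptors, *Ptger4* had its highest mean level in dendritic-like cells, at 78.8, 94.7, 69.6 and 96.2 CPM, then in Folr2 macrophage-like cells (65.6, 54.0, 74.3 and 71.0 CPM) and NK and T-like cells (40.4, 54.4, 60.7 and 69.2 CPM), with each range overlapping the next. Committed progenitor-like and fibroblast-like cells had means of 36.8 and 34.6 CPM. Mesenchymal cells as a whole held 58.5% of *Ptger4* UMIs in control_7d and 60.7% in RA_7d, against 24.9% and 29.02% at 4 dpf. They held 81320179 of all 141714572 kept UMIs in control_7d and 102486710 of 156567619 in RA_7d. *Ptger2* was low throughout. Its highest mean was in Arg1 macrophage-like cells, at 12.5, 9.04, 11.2 and 9.12 CPM, and the ranges of neutrophil-like, NK and T-like and monocyte-like cells overlapped it, so the 4 classes were not ordered beyond their spread.

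*Ptger3* had its highest mean in fibroblast-like cells, at 12.8 and 6.47 CPM in control at 4 and 7 dpf and 22.3 and 11.9 CPM in RA. Myh11 mural-like cells, with markers of smooth muscle, had 10.1, 5.77, 14.4 and 20.8 CPM and could not be ranked apart from them. At a finer resolution, 82 mast cell or basophil-like cells separated from the dendritic-like cells, and these had 38.1 CPM of *Ptger3* (95% interval 26.4 to 53.2; 34 UMIs) and 47.0 CPM of *Ptgs2* (33.9 to 63.5; 42 UMIs), all libraries summed. Of these 82 cells, 40 were from RA_4d, as were 32 of the 34 *Ptger3* UMIs.

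Most *Ptgfr* UMIs were from mesenchymal cells, which held 96.2% to 97.0% of them in the 4 libraries. Fibroblast-like cells had 22.8, 26.3, 39.3 and 15.9 CPM and committed progenitor-like cells 23.6, 14.1, 35.1 and 14.3 CPM. NK and T-like and neutrophil-like cells held no *Ptgfr* UMI in any library.

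*Hpgd* had its highest mean in chondrogenic-like cells, at 124 CPM in control_7d and 286 in RA_7d. Folr2 macrophage-like cells had 63.7, 74.3, 45.3 and 147 CPM, H2-Aa myeloid-like cells 71.0, 63.8, 40.3 and 136 CPM, and monocyte-like cells 107, 25.4, 44.5 and 64.1 CPM. Venular endothelial-like cells, with the most *Ptgs1* and *Slco2a1*, had the lowest mean, at 0 to 1.27 CPM, a range that overlapped those of lymphatic endothelial-like, Myh11 mural-like and NK and T-like cells. Mesenchymal cells supplied 23.3% of *Hpgd* UMIs and 63.6% in control at 4 and 7 dpf and 46.02% and 73.4% in RA, and myeloid cells 65.4%, 30.5%, 49.2% and 24.3%.

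**Figure D2:**
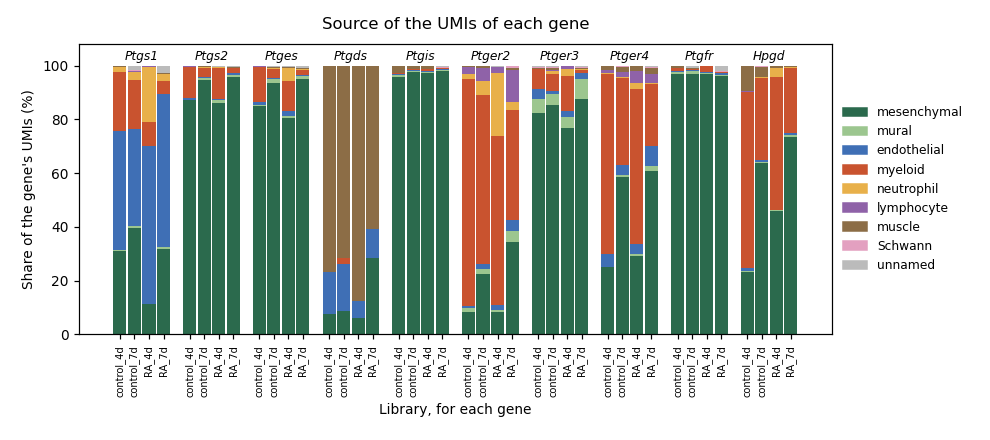
Share (%) of the UMIs of each gene that came from each cell lineage, with 1 bar per library in the order control_4d, control_7d, RA_4d and RA_7d. *Ptgs2*, *Ptges*, *Ptgis* and *Ptgfr* bars are mostly mesenchymal (80.6% to 98.03%), whereas *Ptger4* and *Hpgd* have large mesenchymal and myeloid parts, and *Ptger2* is mostly myeloid at 4 dpf (84.3% in control and 63.0% in RA), with 23.4% from neutrophils in RA_4d.

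RA was next compared with control at each time point, to ask whether serum arthritis went with other levels of these genes in the same cells. Cells of a lineage were summed, a gene was counted where control and RA together held 50 UMIs or more, and it was called past the fold when its CPM, with a pseudocount of 1 CPM, differed by at least 1.5-fold. The median log2 ratio of all genes lay between -0.03 and 0.04 in the 6 comparisons.

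In mesenchymal cells at 4 dpf, 9 of the 10 genes could be counted. *Ptger3* and *Ptgfr* were higher in RA and *Ptgs1* and *Ptgis* lower (4.23% and 2.57% of all 14272 genes were past the fold upward and downward). *Ptger3* was 5.95 CPM in control and 12.3 in RA (log2 ratio 0.93; 95% interval of the unadjusted log2 ratio 0.77 to 1.32), and *Ptgfr* 17.5 and 31.5 CPM (0.81; 0.69 to 1.01). *Ptgs1* was 22.1 CPM in control and 7.29 in RA (-1.48; -1.85 to -1.35), and *Ptgis* 87.7 and 45.2 CPM (-0.94; -1.06 to -0.85). With classes weighted equally the log2 ratio of *Ptgs1* was -0.545 and that of *Ptgfr* 0.527, both within 1.5-fold, and with a pseudocount of 10 CPM that of *Ptger3* was 0.480, also within it. *Ptgs2* was 166 CPM in control and 123 in RA (-0.43), within the fold, and its log2 ratio was -0.084 with classes weighted equally. *Ptges* was 36.1 and 36.6 CPM. Neutrophil markers also differed in these sums, at 21.2 CPM over the 7 markers in control_4d and 192 in RA_4d. Macrophage markers were at 81.5 and 74.2 CPM over 7 markers. Venular endothelial markers, of the class with the highest *Ptgs1*, were at 15.5 and 5.38 CPM over 4 markers. The part of these lists in these ratios was not tested.

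In mesenchymal cells at 7 dpf, again with 9 genes counted, *Ptger3* and *Hpgd* were higher in RA and none was past the fold downward (background 4.52% upward and 4.51% downward). *Ptger3* was 2.96 CPM in control and 6.86 in RA (log2 ratio 0.99), so that its level was higher in RA at both time points. *Hpgd* was 28.5 and 47.4 CPM (0.71; 0.66 to 0.81). *Ptgfr*, higher in RA at 4 dpf, was lower at 7 dpf, at 13.7 CPM in control and 9.65 in RA (-0.46; -0.63 to -0.38), short of the fold. *Ptgis* was 64.4 and 84.2 CPM (0.38). It passed the fold (0.74) without chondrogenic-like cells, of which control_7d held more. *Ptgs2* was 113 CPM in control and 122 in RA (0.11), and 0.38 without chondrogenic-like cells. Without them 3 genes were past the fold, and no share of all genes is given for that setting. With a pseudocount of 10 CPM *Ptger3* (0.379) and *Hpgd* (0.576) were within it. From control to RA in these sums, the 6 osteoclast markers went from 372 to 547 CPM, the 6 pericyte or smooth muscle markers from 405 to 133 and the 7 neutrophil markers from 91.2 to 14.5, and their part was not tested.

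**Figure D3:**
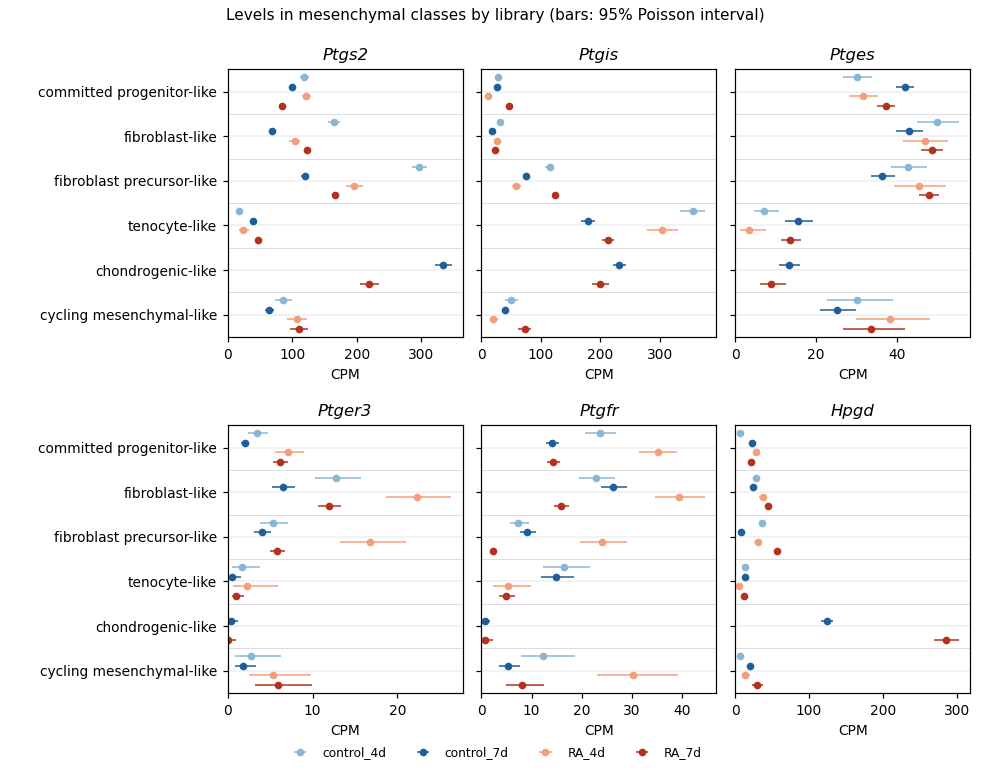
Levels (CPM, linear axis from 0) of 6 genes in the 6 mesenchymal classes, with 1 point per library (blue, control; red and orange, RA; light, 4 dpf; dark, 7 dpf) and bars for the exact 95% Poisson interval. *Hpgd* of fibroblast precursor-like cells was 7.996 CPM in control_7d and 56.4 in RA_7d, and *Ptgfr* of the same cells 9.18 and 2.37 CPM.

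The lineage sums joined classes that differed. In fibroblast precursor-like cells, *Hpgd* was 36.6 and 7.996 CPM in control at 4 and 7 dpf and 30.9 and 56.4 CPM in RA. RA was thus 7.05-fold (95% interval 5.89 to 8.51) of control at 7 dpf, while the levels at 4 dpf were within 1.5-fold of each other. The part of a differing mix of cells within this class, here and in its other ratios below, was not tested. At 7 dpf *Hpgd* was detected in 13.6% of these cells in RA and 3.31% in control after thinning (40.7% and 9.94% before), at median depths of 26590 and 24288.5 UMIs, against 0.547% and 0.355% of venular endothelial-like cells (1.46% and 0.709% before), at 12924 and 12987 UMIs. Committed progenitor-like cells differed at the other time point, with 6.17 CPM in control_4d and 28.7 in RA_4d (4.66-fold; 3.51 to 6.26) but 22.7 and 21.9 CPM at 7 dpf. In chondrogenic-like cells at 7 dpf the ratio was 2.30 (2.11 to 2.52), with an *Hpgd* UMI in 33.9% of control and 34.4% of RA cells before thinning and in 20.2% and 21.4% after.

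The *Ptgfr* level of fibroblast precursor-like cells was 7.34 CPM in control_4d and 23.98 in RA_4d, a ratio of 3.27 (2.36 to 4.55), but 9.18 in control_7d and 2.37 in RA_7d, a ratio of 0.259 (0.193 to 0.344). Fibroblast-like cells showed the same order, with ratios of 1.72 (1.41 to 2.11) at 4 dpf and 0.603 (0.524 to 0.693) at 7 dpf. Tenocyte-like cells did not, since their *Ptgfr* was lower in RA at both time points, with ratios of 0.317 (0.137 to 0.651) and 0.334 (0.225 to 0.489). *Ptger3* was higher in RA by at least 1.5-fold in all 3 classes with enough UMIs at 4 dpf, the committed progenitor-like, fibroblast-like and fibroblast precursor-like cells, and in 3 of 4 classes at 7 dpf.

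The *Ptgs1* level of fibroblast precursor-like cells was 58.9 CPM in control_4d and 14.1 in RA_4d (ratio 0.240; 0.181 to 0.312), whereas at 7 dpf it was 19.6 and 18.4 CPM. These cells had the highest *Ptgs1* level of the mesenchymal classes in control_4d. *Ptgs2* in the same cells was lower in RA at 4 dpf (ratio 0.659; 0.610 to 0.712) and higher at 7 dpf (1.39; 1.32 to 1.47). In fibroblast-like cells the ratios of *Ptgs2* were 0.631 (0.572 to 0.696) at 4 dpf and 1.79 (1.67 to 1.92) at 7 dpf, and in chondrogenic-like cells 0.656 (0.606 to 0.710) at 7 dpf. Committed progenitor-like cells did not follow this order, with their highest level in RA_4d (121 CPM) and their lowest in RA_7d (84.6 CPM). Of the classes with enough UMIs, *Ptgs2* was higher in RA in 5 and lower in 5 of 10 at 4 dpf. At 7 dpf it was higher in 10 and lower in 3 of 13. The 10 immediate early genes, which also respond to tissue dissociation, summed in fibroblast precursor-like cells to 2792 and 2345 CPM in control at 4 and 7 dpf and 4734 and 3270 CPM in RA. The sum was thus higher in RA at both time points, while *Ptgs2* of these cells was lower in RA at 4 dpf. The part of the sum in the *Ptgs2* levels was not tested.

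*Ptgis* was lower in RA at 4 dpf and mostly higher at 7 dpf. At 4 dpf it was lower in RA in all 6 classes with enough UMIs, 4 of them by at least 1.5-fold, among them committed progenitor-like cells at 28.6 CPM in control and 10.2 in RA (ratio 0.357; 0.280 to 0.450). At 7 dpf it was higher in RA in 5 of 7 classes, 3 of them by at least 1.5-fold, with committed progenitor-like cells at 26.9 and 45.999 CPM (1.71; 1.57 to 1.86) and fibroblast precursor-like cells at 74.3 and 124 CPM (1.67; 1.56 to 1.78). Tenocyte-like cells, with the highest mean *Ptgis*, stayed within 1.5-fold at both time points. Muscle-like cells had less in RA at both.

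In myeloid cells at 4 dpf, 7 genes could be counted, of which *Ptger3* was past the fold upward and *Ptgs1* and *Hpgd* downward (background 1.72% upward and 2.01% downward). *Hpgd* was 32.2 CPM in control and 19.7 in RA (log2 ratio -0.68; -0.84 to -0.58) and *Ptgs1* 8.74 and 3.62 CPM (-1.08). *Ptger3* was 0.298 CPM in control and 1.35 in RA, and 32 of its 50 RA UMIs were from the mast cell or basophil-like cells named above. The 6 mast cell or basophil markers summed to 13.2 CPM in myeloid cells of control_4d and 78.1 in RA_4d. Neutrophil markers summed to 123 and 710 CPM there, and the 6 mesenchymal lineage markers to 174 and 87.5 CPM, and their part was not tested. With a pseudocount of 10 CPM none of the 3 genes was past the fold (*Hpgd* -0.507, *Ptgs1* -0.460 and *Ptger3* 0.140). At 7 dpf 6 genes could be counted, and *Hpgd* was past the fold, upward (background 4.35% upward and 3.04% downward), at 33.8 CPM in control and 83.95 in RA (1.29; 1.20 to 1.42). The mesenchymal lineage markers in these myeloid sums were at 408 CPM in control and 601 in RA, so they moved with *Hpgd* at both time points, and their part was not tested. *Ptger4* was just short of it, at 39.9 and 59.8 CPM (0.57; 0.47 to 0.70). *Ptgs2* was 9.80 and 12.5 CPM.

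*Hpgd* was also compared within 4 of the 6 myeloid classes. Ratios are not given for dendritic-like cells (6.25 to 12.3 CPM over the libraries) and osteoclast-like cells (4.71 to 33.2 CPM). At 7 dpf RA stood to control at a ratio of 2.14 (1.90 to 2.40) in H2-Aa myeloid-like cells, 1.98 (1.75 to 2.25) in Folr2 macrophage-like cells, 2.52 (1.62 to 3.99) in monocyte-like cells and 1.57 (1.21 to 2.04) in Arg1 macrophage-like cells. At 4 dpf it was 0.567 (0.485 to 0.661) in H2-Aa myeloid-like cells, 0.416 (0.311 to 0.553) in monocyte-like cells and 0.366 (0.255 to 0.514) in Arg1 macrophage-like cells, and 0.712 (0.619 to 0.817), within 1.5-fold, in Folr2 macrophage-like cells. Muscle-like cells went the other way at 7 dpf, with 51.3 and 26.6 CPM in control at 4 and 7 dpf and 5.61 and 6.72 CPM in RA.

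**Figure D4:**
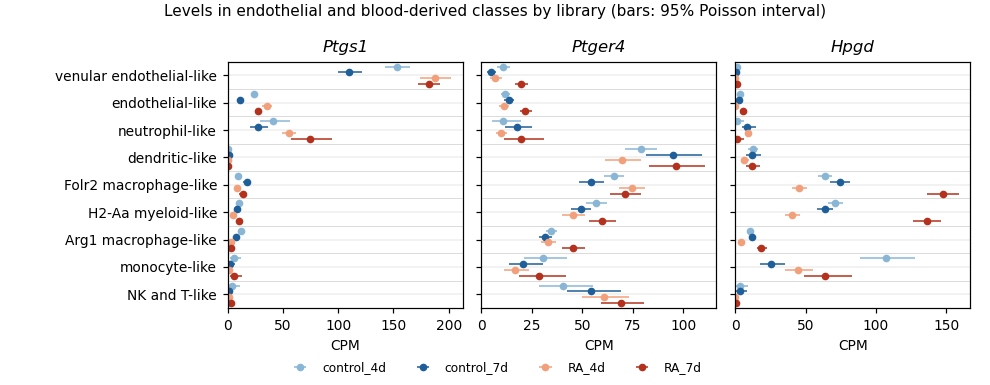
Levels (CPM, linear axis from 0) of *Ptgs1*, *Ptger4* and *Hpgd* in endothelial, neutrophil, myeloid and lymphoid classes, with 1 point per library and bars for the exact 95% Poisson interval. *Hpgd* of Folr2 macrophage-like cells reached 147 CPM in RA_7d against 45.3 to 74.3 in the other libraries.

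In endothelial cells at 4 dpf only *Ptgs1* and *Ptger4* had enough UMIs, and neither was past the fold (background 2.63% upward and 1.99% downward). At 7 dpf *Ptgs1*, *Ptger4* and *Hpgd* of the 4 genes counted were higher in RA (background 3.92% upward and 3.64% downward). *Ptgs1* was 35.8 CPM in control and 85.5 in RA (log2 ratio 1.23; 1.11 to 1.40), and *Ptger4* 10.5 and 19.0 CPM (0.80; 0.58 to 1.14). Venular endothelial-like cells made up 282 of 930 endothelial cells in control_7d and 548 of 1259 in RA_7d, so the mix of classes differed too. Within venular endothelial-like cells *Ptgs1* was 110 and 182 CPM (ratio 1.65; 1.48 to 1.85), and within endothelial-like cells 10.9 and 27.8 CPM (2.56; 2.02 to 3.25). With the endothelial classes weighted equally the log2 ratio was 0.611. *Ptger4* in venular endothelial-like cells was 4.48 and 19.6 CPM (4.38; 2.64 to 7.73), and in endothelial-like cells 13.7 and 21.8 CPM (1.59; 1.27 to 2.00). Arterial-like cells, set apart at the finer resolution, had 62.6 CPM of *Ptger4* in control (86 UMIs) and 72.9 in RA (142 UMIs), within 1.5-fold, and 14.6 and 18.5 CPM of *Hpgd* (20 and 36 UMIs). Of the 314 arterial-like cells of all libraries, 31.5% were called doublets. *Hpgds* and *Tbxas1*, highest in Folr2 macrophage-like cells, were at 24.7 and 26.2 CPM in them in control_7d and 30.3 and 35.9 in RA_7d. The part of doublets in these values was not tested. In the endothelial sums at 7 dpf *Hpgd* was low, at 1.93 and 3.40 CPM from 28 and 64 UMIs. Its log2 ratio was 0.587 (0.16 to 1.51), barely past the limit of 0.585. At 4 dpf, with too few UMIs to be counted, *Hpgd* went the other way, with 37 UMIs in control and 1 in RA. Arterial-like cells held 26 *Hpgd* UMIs in control_4d and 0 in RA_4d. Mesenchymal lineage markers, 6 in number, summed to 136 and 86.7 CPM in endothelial cells at 4 dpf and 543 and 543 CPM at 7 dpf in control and RA. The 7 neutrophil markers summed to 26.6 and 154 CPM at 4 dpf and 130 and 60.2 CPM at 7 dpf. For the 7 macrophage markers the sums were 235 and 99.2 CPM at 4 dpf and 207 and 228 CPM at 7 dpf. The part of these lists was not tested.

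**Figure D5:**
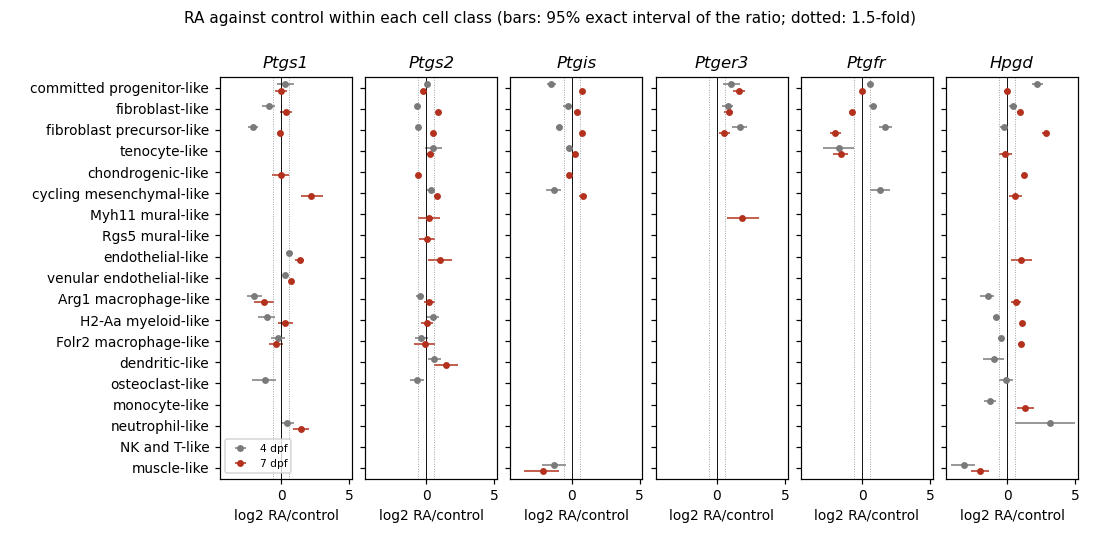
Log2 ratio of RA to control within each cell class at 4 dpf (grey) and 7 dpf (red) for 6 genes, in classes where control and RA together held 50 UMIs or more of the gene, with exact 95% intervals of the ratio (cut at 5) and dotted lines at 1.5-fold. *Hpgd* points of the H2-Aa myeloid-like and monocyte-like cells lie left of 0 at 4 dpf and right of it at 7 dpf, and *Ptgfr* of fibroblast precursor-like cells goes from right to left.

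The other 34 genes of the pathway were followed by the same rule. In mesenchymal cells 3 of the 25 counted at 4 dpf were past the fold, all higher in RA (4.23% of all genes upward and 2.57% downward), namely *Pparg*, a nuclear receptor for prostaglandin J products (3.54 and 8.63 CPM; log2 ratio 1.08), *Tbxa2r*, the thromboxane receptor gene (0.81), and *Ltc4s*, the leukotriene C4 synthase gene (0.64). At 7 dpf 3 of 30 were past it, again upward (4.52% and 4.51% of all genes), *Slco2a1* (11.4 and 20.4 CPM; 0.79), *Pparg* (0.60) and *Pla2g2e* (0.64, from 17 and 90 UMIs). The median over the pathway was 0.04 at 4 dpf and -0.05 at 7 dpf, against 0.04 and -0.03 over all genes.

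In myeloid cells at 4 dpf 4 of 28 pathway genes were past the fold, all lower in RA (1.72% of all genes upward and 2.01% downward), namely *Ltc4s* (34.6 and 9.23 CPM; log2 ratio -1.80), *Alox5*, the 5-lipoxygenase gene (-1.11), *Tbxas1* (106 and 67.3 CPM; -0.65) and *Ptgr1*, which encodes a reductase of prostaglandins and leukotrienes (-0.64). At 7 dpf *Pparg* was higher (82.5 and 135 CPM; 0.70) and *Ptges2* lower (-0.69), of 25 counted (4.35% and 3.04% of all genes). The list medians were -0.12 and 0.03 in myeloid cells at 4 and 7 dpf, against 0.03 and 0.00 over all genes. In endothelial cells at 7 dpf *Slco2a1* was higher in RA (160 and 277 CPM; 0.79), as was *Cysltr1*, a leukotriene receptor gene (1.06), while *Akr1b8* (-1.05) and *Ptgr1* (-1.01) were lower, of 24 counted (3.92% of all genes upward and 3.64% downward). At 4 dpf endothelial cells had 3 of 24 higher (*Pparg*, *Ptgr1* and *Ltc4s*) and 4 lower (*Hpgds*, *Tbxas1*, *Akr1b8* and *Tbxa2r*), against 2.63% and 1.99% of all genes. The list medians in endothelial cells were 0.09 at 4 dpf and -0.09 at 7 dpf, against 0.02 and 0.01 over all genes.

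Of 8 genes known to respond to cyclic AMP, the messenger of EP2 and EP4, 4 were higher in RA in myeloid cells at 7 dpf and none lower (4.35% of all genes upward and 3.04% downward). They were *Areg* (log2 ratio 0.77), *Pde4b* (90.3 and 151 CPM; 0.73), *Nr4a3* (0.71) and *Nr4a1* (0.59). The 8 mast cell or basophil-like cells of RA_7d held 18 *Areg* UMIs and the 13 of control_7d held 0. The part of these cells in the *Areg* ratio was not tested. In mesenchymal cells at 7 dpf *Nr4a1* (113 and 211 CPM; 0.89) and *Nr4a3* (0.74) were higher, 2 of 8, where 4.52% of all genes were past the fold upward. Immediate early genes were higher there too, 4 of 10 at 7 dpf (*Atf3* 0.82, *Junb* 0.80, *Egr1* 0.75 and *Dusp1* 0.70) and 3 of 10 at 4 dpf (*Egr1* 0.81, *Btg2* 0.71 and *Fosb* 0.63), the latter where 4.23% of all genes were past it upward. In myeloid cells *Egr1* (1.55) and *Btg2* (0.99) were higher at 7 dpf, 2 of 10, and *Egr1* (0.96) at 4 dpf, 1 of 10, where 4.35% and 1.72% of all genes were past the fold upward. At 4 dpf *Areg* was the 1 cyclic AMP response gene past the fold in mesenchymal cells, and it was lower in RA (-0.67), as were 2.57% of all genes.

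The arachidonate side of the pathway was placed by its highest levels. *Pla2g4a*, the neighbour of *Ptgs2*, was highest in chondrogenic-like cells, the class with the highest mean *Ptgs2*, at 79.4 CPM in control_7d and 64.9 in RA_7d, followed by neutrophil-like cells (mean 52.6 CPM). *Alox5ap*, which encodes the protein that presents arachidonic acid to 5-lipoxygenase, was highest in monocyte-like cells (mean 1121 CPM). *Alox5* (mean 52.8 CPM) and *Lta4h* (293 CPM) were highest in neutrophil-like cells, *Cysltr2* in NK and T-like cells (67.3 CPM) and *Abcc4*, an exporter of prostaglandins, in venular endothelial-like cells (149 CPM).

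Cells with a *Ptgs2* UMI were compared with cells without 1 in the same class and library, in the classes with at least 50 such cells. Over the class and library pairs with at least 50 UMIs of the second gene, *Ptges* was higher in the cells with *Ptgs2* in 18 of 21 pairs, with an interval above 0 in 6 and below 0 in none (median log2 ratio 0.17). *Ptger4* was higher in 27 of 35 pairs and its interval lay above 0 in 10 and below 0 in 2 (median 0.22), and *Pla2g4a* was higher in 28 of 37, with an interval above 0 in 11 and below 0 in 1 (0.25). *Hpgd* was higher in 18 of 32 (0.14), with an interval above 0 in 11 and below 0 in 7. *Ptgis* was higher in 9 of 21 (-0.09), with an interval above 0 in 6 and below 0 in 6. *Ptgs1* was higher in 11 of 21 (0.04; interval above 0 in 4 and below 0 in 3) and *Ptgfr* in 8 of 15 (0.02; 3 and 0). *Ptger3* was higher in 4 of 10 (-0.07) and *Ptger2* in 4 of 4 (0.26). Of the other pathway genes, *Slco2a1* was higher in 12 of 15 (0.51), with an interval above 0 in 9 and below 0 in 2. *Pparg* was higher in 3 of 24 (-0.46), with an interval above 0 in 0 and below 0 in 9. In chondrogenic-like cells of control_7d *Ptges* was 16.0 CPM in 169 cells with *Ptgs2* and 6.496 CPM in 88 cells without it. Median depths were 32180 and 26112 UMIs. This was 1 of the 21 *Ptges* pairs, with a larger ratio than their median. Of the cyclic AMP response genes, *Nr4a2* (31 of 39 pairs, median 0.44), *Pde4b* (32 of 39, 0.43), *Nr4a3* (33 of 38, 0.41), *Fosl2* (33 of 39, 0.32) and *Nr4a1* (32 of 39, 0.25) were higher with *Ptgs2* in most pairs. *Pde4d* (26 of 39, 0.10) and *Crem* (21 of 35, 0.13) differed less. Of the immediate early genes, *Dusp1* (29 of 39, 0.28), *Junb* (30 of 39, 0.24) and *Fosb* (30 of 39, 0.10) were also higher in most pairs. *Ier2* (24 of 39, 0.05), *Egr1* (23 of 39, 0.09) and *Zfp36* (22 of 39, 0.07) differed less. *Fos* was higher in 18 of 39 (-0.02), *Jun* in 18 of 39 (-0.04), *Atf3* in 19 of 39 (-0.03) and *Btg2* in 15 of 39 (-0.11). Cells with a UMI were deeper, and pairs of 1 library share that library, so these counts are descriptions. No share over all genes was computed for these pairs, so the counts cannot be set against a background.

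Over the 21 classes, the genes whose mean levels were most like those of a member on the log2(CPM + 1) scale were named by Pearson correlation among genes with at least 50 CPM in a class. They were *B3gnt3* (r = 0.79), *Enpp6* (0.76) and *Ackr1* (0.76) for *Ptgs1*, *Selenos* (0.89), *Slc39a14* (0.87) and *Rbp4* (0.87) for *Ptgs2*, and *Ecrg4*, *Cemip* and *Kcnma1* (each 0.94) for *Ptgis*. For *Ptger4* they were *Arf6* (0.84), *Hs6st1* (0.80) and *Arl4c* (0.77), and for *Hpgd* *Akt2* (0.80), *Derl1* (0.80) and *Il18* (0.77). The classes come from the same 4 libraries and differ in depth, so these values describe the classes only.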

How the data were processed

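Callus cells were profiled with the Chromium 3′ v3.1 chemistry. The authors deposited the raw count matrices of 4 libraries, in UMIs,, made with Cell Ranger 7.0.1 on mm10 per the labels and file headers. The study's limits were applied (2000 to 7000 features, no more than 8% mitochondrial UMIs, and UMI totals from 4000 to 50000). They kept 25479 cells, and the study states a slightly smaller number of cells. Scrublet in scanpy 1.11.5 called 592 of them doublets (2.32%), which stayed in. Cells were integrated by CCA in Seurat 5.3.0 (R 4.3.3) on 2000 variable genes, without the 10 genes and the pathway list, and clustered with 15 principal components at resolution 0.5. A cluster took the name with the highest mean log2 ratio of its fixed markers (at least 1, or 0.5 for cycling, with at least 3 markers detected). These naming thresholds were set after the clusters were seen, and names may differ from those of the study.

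UMIs were summed per class or lineage and library in Python 3.11.15 with numpy 2.4.6 and scipy 1.17.1. CPM carried exact Poisson intervals, shares exact Clopper-Pearson intervals and ratios the exact conditional interval of a ratio of 2 counts, all at 95%. Intervals of log2 ratios are without the pseudocount and can lie beyond the value given with it. UMI depth set their width. No p-value was computed, since each condition had 1 library. The ratio scripts were tested on simulated data. Named genes were the 10, genes of the fixed lists past 1.5-fold or with a class maximum, and the 3 most similar genes of each member with at least 50 CPM in a class. All 10 were followed in every comparison, but not every value is given. *Fos*, *Jun*, *Ier2*, *Zfp36*, *Nr4a2*, *Fosl2*, *Crem* and *Pde4d* were named after their values were seen. The members and lists were chosen with earlier results of these data known. Alternatives were other cell filters, no integration, resolution 1, doublets left out, median of ratios scaling, a pseudocount of 10 CPM, equal class weights, a minimum of 10 UMIs and a fold of 2. Leaving out chondrogenic-like cells was added after the data were seen.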

Additional observations from a re-analysis of the deposited data

Results flagged for a closer look

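The ratio of RA to control for *Hpgd*, the prostaglandin-degrading enzyme gene, had opposite signs at the 2 time points in myeloid cells. Its log2 ratio was -0.68 at 4 dpf (32.2 CPM in control and 19.7 in RA) and 1.29 at 7 dpf (33.8 and 83.95 CPM), a difference of 1.97. With 1 library per condition this difference was not tested. The 6 mesenchymal lineage markers in the same myeloid sums had the same signs, at 174 CPM in control and 87.5 in RA at 4 dpf and 408 and 601 CPM at 7 dpf, and their part was not tested. With a pseudocount of 10 CPM the log2 ratio was -0.507 at 4 dpf, within 1.5-fold, and 1.10 at 7 dpf.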

How the results depend on the processing

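No paired analysis was possible because each condition had 1 library, and no library could be left out of a comparison. Of 277 recomputed log2 ratios of the 37 that could be counted, 242 moved by no more than their counting error, 35 moved by more and 0 of the called ones reversed. The number of genes past 1.5-fold changed by over 1.5 times as follows, and the cause was not tested beyond what each setting does. No share of all genes past the fold is given at these settings, so the counts cannot be set against a background. In mesenchymal cells it was 4 at 4 dpf, but 2 with classes weighted equally and 1 at 2-fold, and it was 2 at 7 dpf, but 0 with a pseudocount of 10 CPM and 0 at 2-fold. In myeloid cells it was 3 at 4 dpf, but 0 with a pseudocount of 10 CPM and 1 at 2-fold, and it was 1 at 7 dpf, but 3 with the looser cell filter, 2 without integration and 2 with at least 10 UMIs. In endothelial cells it was 0 at 4 dpf, but 1 with the looser cell filter, 1 with classes weighted equally and 2 with at least 10 UMIs, and it was 3 at 7 dpf, but 1 with a pseudocount of 10 CPM and 1 at 2-fold. The log2 ratio of *Hpgd* in mesenchymal cells at 4 dpf was 0.46, and 1.06 with the looser cell filter. That of *Ptger4* in endothelial cells at 4 dpf was -0.31, and -1.22 with classes weighted equally. The class with the highest level was the same for all 10 genes with the looser filter and with doublets left out, for 8 with UMIs summed over libraries, and for 7 without integration and 7 at resolution 1. The changes were in *Ptger2*, *Ptger3* and *Ptgfr*. For *Ptger2* and *Ptgfr* the leading classes overlapped. For *Ptger3* the leader with UMIs summed was Myh11 mural-like, which overlapped fibroblast-like cells. Without integration and at resolution 1 it was mast cell or basophil-like, a class not set apart in the main clusters. *Ptges* was higher in cells with *Ptgs2* in 85.7% of class and library pairs, and in 70% when a cell needed at least 2 *Ptgs2* UMIs. With at least 2 UMIs *Fos* was higher in 13 of 22 pairs, *Jun* in 12, *Ier2* in 19, *Zfp36* in 18 and *Btg2* in 7. No share over all genes was computed for these pairs. Counting error limits *Ptgds*, *Ptger2* and *Ptger3* most, and no value here covers the spread between animals.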
